A study of Mus musculus with 56 samples.

Results

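Livers of day-fed and night-fed mice were compared at ZT24, the close of the dark phase (ZT, zeitgeber time, counts the hours from lights-on). The comparison comprised 8 of the 56 livers of the series, 4 under daytime-restricted feeding (DRF) and 4 under nighttime-restricted feeding (NRF, the reference regimen). The 2 groups were defined by the regimen and time on their sample labels. The comparison itself was chosen with earlier results of these data known. All animals of both groups were female C57BL/6J mice, 9 weeks old, kept under 12 h of light and 12 h of dark and held on their regimen for 7 days. Food was present from ZT0 to ZT12 under DRF and from ZT12 to ZT24 under NRF. At ZT24 the DRF mice had therefore reached the end of their 12 h fast and the NRF mice the end of their 12 h of feeding. The labels name no transgene, deletion or drug in either group. The libraries were made from whole liver, a mixture of cell types, and in such bulk samples fewer cells of a type and less RNA per cell cannot be told apart. Other animals of the series, collected at ZT0 (8 livers) and at ZT12 (8 livers), served to ask how far the ZT24 differences recurred at the same time of day and at the opposite end of the feeding cycle.

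The liver clock is a feedback loop in which BMAL1 (encoded by Arntl) and CLOCK or NPAS2 activate the Per, Cry and Nr1d genes. The PER and CRY proteins then repress BMAL1 and CLOCK, and the REV-ERB proteins encoded by Nr1d1 and Nr1d2 repress Arntl. Feeding is a strong time cue for the clock of the liver. Fasting and feeding also set the liver through hormones and nutrients: glucagon, glucocorticoids and fatty acids acting on PPAR-alpha favour glucose production and fat burning in the fast, while insulin, SREBP and amino acids favour glycogen storage, lipid synthesis and protein synthesis after meals.

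Gene values are scaled counts, recovered here from the non-linear values of the deposited table. Gene length does not enter them, so a value may be set against that of the same gene in another liver but not against another gene. Values follow the order of replicates 1 to 4, those of the DRF livers before those of the NRF livers. The 8 libraries summed to between 921282 and 1030514 scaled counts, and between 13340 and 13659 genes reached 1 scaled count in each. Correlations of log2 values between livers of the same group, across genes, were at least 0.975. Albumin (Alb), the main secreted protein of hepatocytes, held between 8.23% and 11.6% of each library. Summed hepatocyte markers (5 of 6 measured) ranged from 101943 to 110799 scaled counts under DRF and from 108461 to 147706 under NRF (two-sided exact permutation test, 4 against 4 livers, p = 0.0857). Markers of adipocytes, neutrophils and lymphocytes summed to at most 0.015, 1.41 and 2.61 scaled counts in any of the 8 livers. Kupffer cell markers, with all 10 measured, summed to 660.2 to 804.6 under DRF and to 798 to 1383 under NRF (exact permutation test, p = 0.0571). Stellate cell markers (10 of 10) summed to 894.8 to 1016 under DRF and to 762.5 to 877.9 under NRF (exact permutation test, p = 0.0286, the smallest this design can give, and 0.143 adjusted over 10 marker lists). Exocrine pancreas markers (2 of 6 measured) were rare and summed to 1.94 to 2.57 under DRF and to 3.33 to 4.99 under NRF. Their exact permutation test gave the same p = 0.0286, and 0.143 adjusted. In two-sided exact tests, all lists but the stellate cell and exocrine pancreas lists had adjusted p-values of at least 0.19.

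Day-fed and night-fed livers differed in a large share of their transcripts at ZT24. Of 25404 genes tested with limma, 3571 (14.1%) differed between DRF and NRF at a Benjamini-Hochberg adjusted p under 0.05, of which 1804 (7.1% of all genes) were higher and 1767 (6.96%) lower under DRF. The median absolute difference of these genes was 0.43 on the log2 scale. It exceeded 1 in 323 genes (153 higher, 170 lower) and 2 in 49 genes (25 higher, 24 lower). Log2 differences were taken on log2(scaled count + 1), which understates the change of genes with few counts. In 2892 of the 3571 genes the 4 DRF livers lay entirely above or below the 4 NRF livers. Over all genes tested, 4259 (16.8%) were separated in this way. Among the 8810 genes with a mean of at least 5 scaled counts, 13.2% were higher and 12.7% lower. Counts of list members below are to be read beside these shares, and no list was tested as a set. Of 15077 protein-coding genes 19.3% passed, of 4621 long non-coding RNAs 7.21% and of 2449 pseudogenes 5.59%. With a mean of at least 5 scaled counts these were 2192 of 8277, 66 of 351 and 16 of 122, and the difference between classes was not tested.

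Most activators of the clock were lower and most of its repressors higher in the day-fed livers. Of the 5 clock activators measured, 4 were lower and 0 higher, and of the 11 clock repressors 8 were higher and 2 lower (median log2 differences -0.85 and 0.94, against 9.44e-06 over all genes tested). Arntl (BMAL1; ENSMUSG00000055116, chromosome 7, 113207465 to 113314126) stood at 9.095, 11.9, 10.5 and 9.98 scaled counts in the 4 DRF livers and at 73.2, 72.5, 73.1 and 81.2 in the 4 NRF livers. Every DRF liver was far below every NRF liver (log2 difference -2.75 ± 0.19, SE, limma adjusted p = 5.89e-15). Npas2, a CLOCK paralogue that also pairs with BMAL1, read 0.655, 0.571, 0.5102 and 0.607 under DRF and 5.73, 5.18, 7.34 and 12.3 under NRF (log2 difference -2.38 ± 0.17, SE, limma adjusted p = 2.11e-14), and NRF replicate 4 was the highest of the 8. Clock itself differed less, with 77.8, 67.05, 70.4 and 66.8 under DRF and 126, 146, 109 and 131 under NRF (log2 difference -0.85 ± 0.16, SE, limma adjusted p = 7.85e-05), yet the groups did not overlap. Rora, which encodes an activator of Arntl, gave 216, 186, 219.8 and 209 and 191, 185, 206 and 194 in the same order, a difference that did not pass (log2 difference 0.095 ± 0.073, SE, limma adjusted p = 0.486).

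Among the repressors, the REV-ERB genes had the largest differences on the log2(scaled count + 1) scale, which compresses those of rare genes such as Ciart. Nr1d1 (REV-ERB-alpha; ENSMUSG00000020889, chromosome 11, 98767932 to 98775333) had 45.6, 16.3, 21.7 and 25.6 scaled counts in the DRF livers and 1.23, 0.644, 1.21 and 1.74 in the NRF livers (log2 difference 3.61 ± 0.31, SE, limma adjusted p = 5.20e-12). DRF replicate 1 was the highest, and the lowest DRF liver was still above every NRF liver. Nr1d2 (REV-ERB-beta; ENSMUSG00000021775, chromosome 14, 18204054 to 18239127) read 183, 150.2, 189 and 185 against 18.1, 11.7, 12.4 and 14.4 (log2 difference 3.56 ± 0.17, SE, limma adjusted p = 7.14e-21). Nfil3 (E4BP4; ENSMUSG00000056749, chromosome 13, 52967209 to 52981073), a repressor that competes with the PAR bZIP factors, ran the other way at 16.1, 10.5, 12.9 and 12.6 under DRF and 60.6, 49.7, 59.1 and 59.03 under NRF (log2 difference -2.06 ± 0.16, SE, limma adjusted p = 4.84e-13). The core promoters of Arntl and Nfil3 are shown because both genes were lower where the REV-ERB genes were higher and both windows hold a match to the ROR/REV-ERB element TAGGTCA or TGGGTCA, in capitals (RefSeq, GRCm38.p6, 250 bases before to 50 after the transcription start, gene strand; the Arntl window, chr7:113207261-113207560, plus strand, is the second of 2 listed starts, and the Nfil3 window is chr13:52980990-52981289, minus strand).
Arntl: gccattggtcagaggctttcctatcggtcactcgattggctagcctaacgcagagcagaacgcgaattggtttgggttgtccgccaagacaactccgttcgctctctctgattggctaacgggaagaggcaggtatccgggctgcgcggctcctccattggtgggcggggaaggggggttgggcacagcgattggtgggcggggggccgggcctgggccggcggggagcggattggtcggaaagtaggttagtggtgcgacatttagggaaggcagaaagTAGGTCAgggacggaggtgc
Nfil3: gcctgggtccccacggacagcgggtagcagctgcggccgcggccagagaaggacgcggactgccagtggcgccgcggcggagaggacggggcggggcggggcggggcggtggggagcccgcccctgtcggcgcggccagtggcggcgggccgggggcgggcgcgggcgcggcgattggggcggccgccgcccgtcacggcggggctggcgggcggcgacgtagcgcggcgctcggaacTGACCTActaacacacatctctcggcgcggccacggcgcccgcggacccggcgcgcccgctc
The match lay 30 to 36 bases after the start in Arntl and 12 to 6 bases before it in Nfil3, there on the opposite strand. Searched on both strands, this element occurred in 6.45% of 32851 promoters of the table, so a match is a description and not a site. Counted at any listed start, it occurred in 7.35% of 27025 genes. The share was 7.42% of the 1213 lower genes and 6.05% of the 1207 higher genes found there.

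The Period genes rose together in the day-fed livers. Per1 had 6.95, 6.72, 15.4 and 10.6 scaled counts under DRF and 2.75, 1.99, 1.02 and 0.914 under NRF (log2 difference 2.02 ± 0.27, SE, limma adjusted p = 2.90e-07). Per2 read 28.2, 35.4, 43.1 and 40.7 and 11.4, 26.3, 14.5 and 18.8 (log2 difference 1.06 ± 0.26, SE, limma adjusted p = 0.00287), with the narrowest gap of the family, between 26.3 in NRF replicate 2 and 28.2 in DRF replicate 1. Per3 (ENSMUSG00000028957, chromosome 4, 151003652 to 151044665) was separated furthest, 36.3, 46.2, 36.05 and 39.8 against 5.83, 3.197, 2.66 and 2.74 (log2 difference 3.18 ± 0.197, SE, limma adjusted p = 2.85e-16). The Cryptochrome genes, which encode the partners of the PER proteins, split. Cry1 was lower under DRF in every liver, 24.5, 35.7, 43.8 and 31.7 against 133, 129, 82.9 and 92.4 (log2 difference -1.66 ± 0.196, SE, limma adjusted p = 1.82e-08). Cry2 was higher, 48.4, 29.6, 40.8 and 30.7 against 27.4, 25.4, 23.6 and 22.2 (log2 difference 0.56 ± 0.104, SE, limma adjusted p = 1.03e-04). Ciart (CHRONO), a repressor that binds BMAL1, was rare in all livers, from 0.749 to 1.62 scaled counts under DRF and from 0.0265 to 0.077 under NRF (log2 difference 0.94 ± 0.11, SE, limma adjusted p = 2.26e-08). Bhlhe40 and Bhlhe41, repressors that bind E-boxes, had log2 differences of 0.56 (adjusted p = 0.123) and 0.29 (adjusted p = 0.0454), the latter lost when any 1 of DRF replicate 1, NRF replicate 1, NRF replicate 2, NRF replicate 3 and NRF replicate 4 was left out (log2 differences from 0.14 to 0.31, adjusted p from 0.0654 to 0.427). All 11 repressors were separated between the groups without overlap, against 16.8% of all genes.

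E-boxes (CACGTG) bind the BMAL1 and CLOCK dimer, and D-boxes (TTANGTAA) bind DBP, TEF, HLF and NFIL3. Ciart and Per3 are printed as the repressors whose windows hold several copies, in capitals (RefSeq, GRCm38.p6; Ciart chr3:95882179-95882478 and Per3 chr4:151044616-151044915, both on the minus strand, written 5′ to 3′ on the gene strand).
Ciart: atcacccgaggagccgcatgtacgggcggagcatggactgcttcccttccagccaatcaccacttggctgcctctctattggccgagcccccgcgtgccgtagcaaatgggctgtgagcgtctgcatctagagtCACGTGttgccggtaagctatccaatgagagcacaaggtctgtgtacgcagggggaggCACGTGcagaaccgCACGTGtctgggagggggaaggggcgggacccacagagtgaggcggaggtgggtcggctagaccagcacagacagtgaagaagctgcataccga
Per3: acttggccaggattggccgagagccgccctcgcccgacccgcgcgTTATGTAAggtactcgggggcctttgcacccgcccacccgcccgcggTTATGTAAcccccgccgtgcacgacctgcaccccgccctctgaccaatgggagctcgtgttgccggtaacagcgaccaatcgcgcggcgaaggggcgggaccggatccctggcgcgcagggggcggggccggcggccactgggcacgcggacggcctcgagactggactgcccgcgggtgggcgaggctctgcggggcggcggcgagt
Ciart held 3 E-boxes, starting 116, 58 and 44 bases before the transcription start, and Per3 held 2 D-boxes, starting 205 and 158 bases before it. Of the 9 clock repressors found in the promoter table, 4 (44.4%) held an E-box at any listed start, against 8.09% of 27025 genes in the table. Over all 32851 promoters, 7.15% held an E-box and 2.32% a D-box. Among the genes called at ZT24, an E-box occurred at any listed start in 13.6% of the 1207 higher genes and in 11.3% of the 1213 lower genes found in the table. The like share over all genes in the table is the 8.09% given above. These shares describe letters in a window and say nothing of binding.

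**Figure D1:**
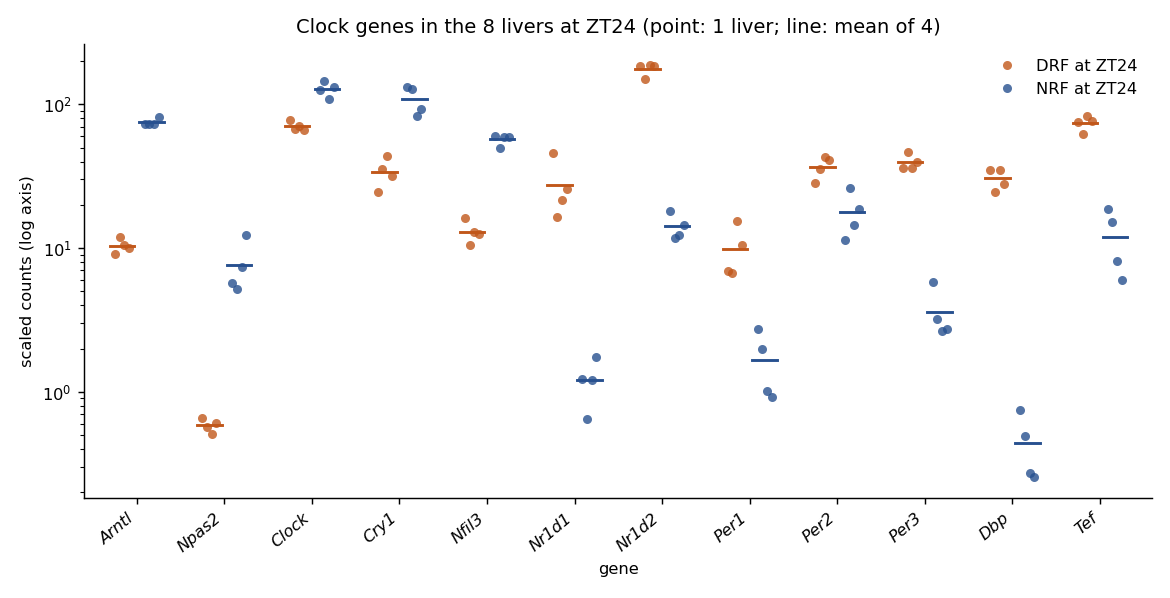
Scaled counts (vertical log axis) of 12 clock genes in the 8 livers at ZT24. Each point is 1 liver and each line the mean of 4. Arntl, Npas2, Clock, Cry1 and Nfil3 are lower and the other 7 genes higher under DRF, and no gene has overlapping groups.

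Output genes of the clock moved with these factors in both directions. Of 15 measured, 8 were higher, 5 lower and 2 not called (median log2 difference 0.52). Dbp (ENSMUSG00000059824, chromosome 7, 45705088 to 45710203), the D-box activator transcribed from E-boxes, read 34.95, 24.6, 34.7 and 28.1 scaled counts in the DRF livers and 0.752, 0.492, 0.271 and 0.255 in the NRF livers. Its difference of 4.45 ± 0.21 on the log2 scale (SE, limma adjusted p = 1.54e-20) was the highest of all 25404 genes. The related activators Tef, with 75.2, 62.3, 83.4 and 77 against 18.6, 15.1, 8.16 and 5.96 (log2 difference 2.66 ± 0.18, SE, limma adjusted p = 5.89e-15), and Hlf, with 37.1, 56.8, 72.97 and 37.2 against 22.8, 27.4, 21.3 and 20.1 (log2 difference 1.07 ± 0.19, SE, limma adjusted p = 4.00e-05), were higher too. Rgs16, a regulator of G-protein signalling, reached 29.7, 13.7, 28.4 and 14.9 under DRF, while the NRF livers held 0.9899, 0.0693, 0.133 and 7.43 (log2 difference 3.34 ± 0.48, SE, limma adjusted p = 1.12e-06). NRF replicate 4 lay well above the other night-fed livers for this gene. Wee1, a kinase that delays mitosis, was higher at 20.4, 18.8, 25.97 and 24.6 against 5.32, 5.43, 5.11 and 3.61 (log2 difference 1.998 ± 0.15, SE, limma adjusted p = 2.25e-13). So was the deubiquitinase Usp2 (log2 difference 2.41 ± 0.26, SE, limma adjusted p = 1.41e-09). Nampt, which makes a NAD+ precursor, showed a smaller difference (log2 difference 0.52 ± 0.104, SE, limma adjusted p = 2.73e-04). The lower outputs included Ddc, the aromatic amino acid decarboxylase, at 60.2, 64.01, 65.5 and 54.9 against 226, 245, 274 and 215 (log2 difference -1.95 ± 0.14, SE, limma adjusted p = 5.56e-14). They also included the vasopressin receptor gene Avpr1a (-1.64 ± 0.16) and Insig2 (-1.14 ± 0.196), which retains SREBP in the endoplasmic reticulum. The lowest member of this list, Tubb2a (-3.81), is also counted in the tubulin list below.

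Of 19 genes of glucose production and of its control by cAMP, 8 were higher, 0 lower and 11 not called in the fasted, day-fed livers (median log2 difference 0.36), and the count was 5 without DRF replicate 3 and 5 without NRF replicate 4. Pck1 (ENSMUSG00000027513, chromosome 2, 173153048 to 173159273), which encodes the first committed enzyme of gluconeogenesis, had 842, 715, 941 and 627 scaled counts under DRF and 345, 143, 99.3 and 84.7 under NRF (log2 difference 2.42 ± 0.36, SE, limma adjusted p = 2.00e-06). NRF replicate 1 was the highest of the night-fed livers and still below all day-fed livers. Ppargc1a (PGC-1-alpha), a coactivator induced by fasting, read 73.01, 80.3, 92.1 and 56.7 and 49.3, 28.5, 21.9 and 30.96 (log2 difference 1.22 ± 0.15, SE, limma adjusted p = 5.37e-08). Creb3l3 (CREBH), a fasting-responsive transcription factor, was at 212, 178, 191 and 197 and 119.7, 132, 118 and 98.7 (log2 difference 0.73 ± 0.13, SE, limma adjusted p = 5.64e-05). Foxo1, a factor that insulin keeps out of the nucleus, was at 119, 130.1, 146 and 121 and 97.8, 91.6, 86.2 and 85.2 (log2 difference 0.51 ± 0.11, SE, limma adjusted p = 8.71e-04). Sds, the serine dehydratase, was also higher (log2 difference 1.08 ± 0.21, SE, limma adjusted p = 2.23e-04), although 29.6% of its exonic length is overlapped by Plbd2 on the other strand and the use of strand in counting is not given in the sources used here. G6pc, which encodes the last enzyme of glucose release, gave 133, 306, 237 and 189 under DRF and 267, 197, 160.3 and 241 under NRF, with overlapping groups and no call (log2 difference -0.038 ± 0.34, SE, limma adjusted p = 0.984).

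Of 27 genes of fatty acid oxidation and ketogenesis, 9 were higher and 1 lower (median log2 difference 0.30), and 5 were higher when only the 8 libraries were fitted. Cpt1a (ENSMUSG00000024900, chromosome 19, 3322334 to 3385733), the gatekeeper of mitochondrial fatty acid import, stood at 254, 231, 223 and 229 in the DRF livers and 98.2, 85.1, 72.6 and 52.6 in the NRF livers (log2 difference 1.62 ± 0.14, SE, limma adjusted p = 2.45e-12). Ppara, the fatty acid receptor that drives the fasting programme, read 347, 269, 288 and 379 and 155, 151, 135 and 106 (log2 difference 1.22 ± 0.14, SE, limma adjusted p = 1.41e-08). The acyl-CoA dehydrogenase gene Acadl had a difference of 0.42 ± 0.085 (adjusted p = 3.27e-04), a call that the values as deposited did not give. The 1 lower gene was Pdk4, a kinase that shuts off pyruvate dehydrogenase and is known as a fasting gene: it read 10.8, 7.805, 8.502 and 5.899 in the day-fed livers at the end of their fast and 24.03, 21.4, 22.1 and 23.5 in the night-fed livers at the end of feeding (log2 difference -1.39 ± 0.33, SE, limma adjusted p = 0.00204), with no overlap.

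Of 15 hepatokines and lipid droplet genes of the fast, 5 were higher and 0 lower, with 1 lower without DRF replicate 4. Angptl4, a secreted inhibitor of lipoprotein lipase, read 9.11, 12.02, 14.4 and 7.67 and 3.35, 1.67, 1.13 and 1.61 (log2 difference 2.02 ± 0.32, SE, limma adjusted p = 8.67e-06). Lpin1 and Lpin2, phosphatidate phosphatases, were both higher, Lpin1 at 49.4, 107, 103 and 50.7 against 26.8, 13.9, 31.7 and 30.98 (log2 difference 1.52 ± 0.299, SE, limma adjusted p = 2.25e-04) and Lpin2 at 73.6, 67.4, 76.9 and 68.7 against 31.2, 21.9, 28.98 and 27.4 (log2 difference 1.37 ± 0.12, SE, limma adjusted p = 3.43e-12). The DRF values of Lpin1 fell into a higher pair (replicates 2 and 3) and a lower pair, all above the NRF livers. Pnpla2 (ATGL), which hydrolyses stored triglyceride, was tight within groups at 14.4, 14.3, 14.5 and 13.2 and 8.27, 7.99, 5.601 and 5.97 (log2 difference 0.94 ± 0.13, SE, limma adjusted p = 4.00e-07). The fasting hormone gene Fgf21 was low in all 8 livers, from 0.0209 to 0.224 scaled counts, and was not called (log2 difference 0.11 ± 0.098, SE, limma adjusted p = 0.585).

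Glycolysis and glycogen genes went both ways. Of 19 measured, 4 were higher and 4 lower. The lower group included the glycogen-targeting phosphatase subunits Ppp1r3c, at 11, 5.97, 5.23 and 7.76 and 46.5, 55.03, 42.7 and 41.9 (log2 difference -2.52 ± 0.19, SE, limma adjusted p = 5.32e-14), and Ppp1r3b (log2 difference -1.46 ± 0.24, SE, limma adjusted p = 1.11e-05). The higher group included Gys2, the liver glycogen synthase, at 534, 506, 543 and 628 and 259, 238, 247 and 269 (log2 difference 1.12 ± 0.11, SE, limma adjusted p = 4.67e-10). It also included Ugp2, which makes the UDP-glucose it uses, at 1509.5, 1661, 2191 and 1816 and 733, 809, 737 and 773 (log2 difference 1.22 ± 0.16, SE, limma adjusted p = 1.10e-07), and the glucose transporter gene Slc2a2 (GLUT2), at 560.2, 598, 690.1 and 685 and 286, 288, 301 and 328 (log2 difference 1.07 ± 0.13, SE, limma adjusted p = 4.02e-08). None of these 5 genes had overlapping groups.

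Of 20 genes of de novo lipogenesis, 8 were lower, 1 higher and 11 not called in the day-fed livers (median log2 difference -0.48), and 5 were lower without DRF replicate 1. Pnpla3, an SREBP target, showed the largest difference of the list with 1.26, 1.85, 1.57 and 2.001 against 7.01, 4.502, 13.7 and 33.3 (log2 difference -2.202 ± 0.43, SE, limma adjusted p = 1.77e-04), and the night-fed livers varied from 4.502 to 33.3. Srebf1, which encodes the SREBP-1 factors, read 134, 101, 146 and 140.3 and 185, 244, 242 and 271 (log2 difference -0.85 ± 0.202, SE, limma adjusted p = 0.00222). Acly, which supplies acetyl-CoA to the pathway, read 184, 389, 412 and 344 and 579, 501, 832 and 977 (log2 difference -1.13 ± 0.28, SE, limma adjusted p = 0.00306). Fasn, the fatty acid synthase, had 125, 204, 331 and 206 under DRF and 321, 295, 592 and 1025 under NRF (log2 difference -1.26 ± 0.38, SE, limma adjusted p = 0.0172). Its groups overlapped and its call was lost without DRF replicate 1 (-1.02, adjusted p = 0.0974) or without NRF replicate 3 (-1.17, adjusted p = 0.0556) or without NRF replicate 4 (-0.902, adjusted p = 0.139). Elovl5 (log2 difference -0.79 ± 0.15, SE, limma adjusted p = 1.32e-04) and the pentose phosphate enzyme gene Pgd (log2 difference -0.801 ± 0.15, SE, limma adjusted p = 1.06e-04) were lower without overlap. Acaca, the acetyl-CoA carboxylase, gave 172, 311, 336 and 279.7 and 247, 213, 309 and 561 and did not pass (log2 difference -0.21 ± 0.22, SE, limma adjusted p = 0.643). The 1 higher member was Dgat2, which makes triglyceride (log2 difference 0.31 ± 0.11, SE, limma adjusted p = 0.0454), a call lost when any 1 of DRF replicate 2, DRF replicate 3, DRF replicate 4, NRF replicate 2, NRF replicate 3 and NRF replicate 4 was left out (log2 differences from 0.22 to 0.33, adjusted p from 0.0565 to 0.223).

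Of 26 genes of sterol synthesis and uptake, 15 were lower, 1 higher and 10 not called (median log2 difference -0.57), and 9 were lower without DRF replicate 1, 9 without NRF replicate 3 and 4 when only the 8 libraries were fitted. Insig1, an SREBP target that retains SREBP in the endoplasmic reticulum, read 110.4, 86.5, 143 and 121 and 230.2, 199, 314 and 218 (log2 difference -1.06 ± 0.19, SE, limma adjusted p = 3.95e-05). Sqle, the squalene epoxidase, read 18.7, 22.8, 42.9 and 27.03 and 54.9, 53.9, 83.2 and 62.4 (log2 difference -1.21 ± 0.29, SE, limma adjusted p = 0.00227). Sc5d, an enzyme of the last steps, read 155, 176, 192 and 208 and 383, 281, 443 and 385 (log2 difference -1.01 ± 0.15, SE, limma adjusted p = 2.99e-06). The mevalonate enzyme genes Pmvk (-1.01 ± 0.21) and Mvd (-1.19 ± 0.27) were lower as well. The 1 higher gene was Mylip (IDOL), 19.1, 19.5, 23.4 and 20.6 against 12.3, 12.4, 9.76 and 8.52 (log2 difference 0.89 ± 0.12, SE, limma adjusted p = 3.67e-07), a ubiquitin ligase gene. The promoter of Hmgcs1 is shown as the only window of the 18 sterol genes in the promoter table with a sterol regulatory element by these letters, TCACNCCAC, in capitals (RefSeq, GRCm38.p6, chr13:119690101-119690400, plus strand, match 137 to 129 bases before the start). The element occurred in 1.24% of all 32851 promoters.
Hmgcs1: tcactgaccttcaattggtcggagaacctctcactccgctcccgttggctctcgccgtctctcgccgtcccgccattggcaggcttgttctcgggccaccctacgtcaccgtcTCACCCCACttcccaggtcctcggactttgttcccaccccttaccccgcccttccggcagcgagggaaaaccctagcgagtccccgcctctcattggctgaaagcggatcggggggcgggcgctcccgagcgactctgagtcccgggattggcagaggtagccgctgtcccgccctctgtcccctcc
Hmgcs1, the cytosolic HMG-CoA synthase, had 146, 157, 256 and 206 scaled counts under DRF and 337, 255, 498 and 344 under NRF (log2 difference -0.901 ± 0.26, SE, limma adjusted p = 0.0126). The groups overlapped by the highest DRF liver (256) and the lowest NRF liver (255), and the call was lost without DRF replicate 1 (-0.78, adjusted p = 0.0617) or without NRF replicate 3 (-0.73, adjusted p = 0.0775).

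**Figure D2:**
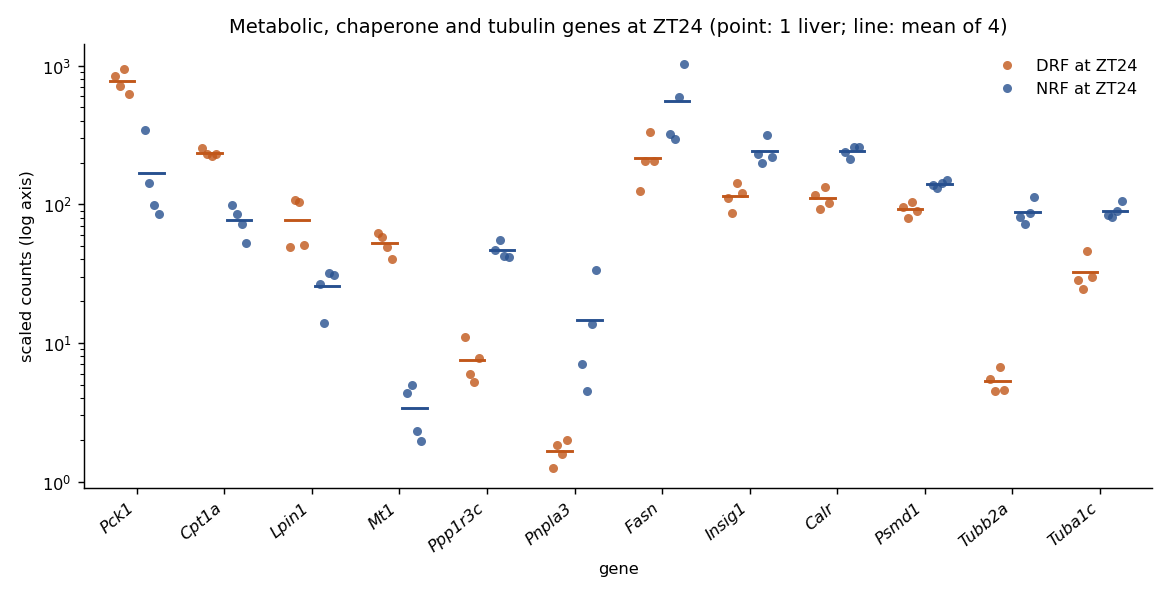
Scaled counts (vertical log axis) of 12 genes in the 8 livers at ZT24. Points are livers and lines are means of 4. Pck1, Cpt1a, Lpin1 and Mt1 are higher under DRF, the other 8 genes are lower, and the groups of Fasn alone overlap.

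Genes of amino acid breakdown and the urea cycle were more often higher than lower in the day-fed livers. Of 30 genes, 11 were higher and 3 lower (median log2 difference 0.25), and 6 were higher with the values as deposited. Gpt2, the mitochondrial alanine transaminase, read 693, 858, 839 and 704 and 434, 457, 419.9 and 349.9 (log2 difference 0.897 ± 0.16, SE, limma adjusted p = 5.22e-05). Asl, the argininosuccinate lyase of the urea cycle, read 567, 796, 846 and 728 and 436, 453, 353 and 350.4 (log2 difference 0.88 ± 0.16, SE, limma adjusted p = 6.20e-05). Oat, the ornithine aminotransferase, read 2261, 1877, 2132 and 2200.5 and 1041, 1361, 1196 and 815 (log2 difference 0.96 ± 0.196, SE, limma adjusted p = 3.52e-04). The lower genes were Cbs, which diverts homocysteine to cysteine, at 116, 112, 119.9 and 126 and 217, 203, 199.8 and 190.3 (log2 difference -0.77 ± 0.088, SE, limma adjusted p = 1.05e-08), the glycine cleavage gene Gldc (log2 difference -0.57 ± 0.14, SE, limma adjusted p = 0.00252) and the urea cycle activator gene Nags (log2 difference -0.43 ± 0.11, SE, limma adjusted p = 0.00362). Tat, a classical glucocorticoid target, gave 369.7, 548, 626 and 535 and 635, 809, 638 and 347 and was not called (log2 difference -0.19 ± 0.25, SE, limma adjusted p = 0.742). In the integrated stress response list, 2 of 15 genes were higher and 2 lower, against 7.1% higher and 6.96% lower over all genes tested. The lower count was 1 without DRF replicate 3 and 0 without DRF replicate 2 or NRF replicate 1, 3 or 4. Among the higher genes was Sesn2, an inhibitor of mTORC1, at 13.9, 13.4, 14.2 and 13.4 and 7.54, 5.98, 5.97 and 5.14 (log2 difference 1.05 ± 0.13, SE, limma adjusted p = 9.75e-08). Asns and Ddit3, targets of the same response, were not called (-0.016 and -0.24, adjusted p = 0.967 and 0.107).

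Most measured chaperones of the endoplasmic reticulum, where secreted proteins fold, were lower in the day-fed livers. Of 18 genes measured, 13 were lower and 1 higher (median log2 difference -0.60). Sdf2l1, a chaperone cofactor induced by feeding, was at 2.72, 2.78, 2.63 and 2.35 under DRF and 12.6, 10.7, 14.3 and 13.1 under NRF (log2 difference -1.91 ± 0.22, SE, limma adjusted p = 1.25e-08). The lectin chaperone gene Calr (ENSMUSG00000003814, chromosome 8, 84841850 to 84846934) read 117, 91.7, 133 and 103 and 239, 214, 259.6 and 260.4 (log2 difference -1.13 ± 0.13, SE, limma adjusted p = 1.41e-08), and the disulfide isomerase genes Pdia6, at 80.5, 73.3, 86.7 and 73.97 and 202, 152, 169.8 and 186 (log2 difference -1.16 ± 0.13, SE, limma adjusted p = 4.67e-09), and Pdia3 (log2 difference -0.93 ± 0.13, SE, limma adjusted p = 6.80e-07) behaved alike in direction. Hyou1 was lower in every liver, 32.9, 17.5, 38.2 and 22.7 against 58.05, 65.4, 82.3 and 88.5 (log2 difference -1.41 ± 0.205, SE, limma adjusted p = 1.35e-06). Hspa5 (BiP), the central chaperone of the list, gave 76.5, 56.96, 82.6 and 64.7 and 52.7, 109, 111 and 139, and with NRF replicate 1 inside the DRF range it was not called (log2 difference -0.48 ± 0.24, SE, limma adjusted p = 0.224). The 1 higher member, Herpud1, acts in the disposal of misfolded proteins and read 75.3, 67.1, 89.6 and 77 and 32.3, 35.7, 37.7 and 28.8 (log2 difference 1.17 ± 0.2, SE, limma adjusted p = 2.32e-05).

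The heat shock and proteasome genes that passed were lower as well. Of 18 heat shock genes, 7 were lower and 0 higher (median log2 difference -0.30), but the count was 4 without DRF replicate 1, 2 without DRF replicate 2, 4 without DRF replicate 4 and 3 without NRF replicate 4. Fkbp4, a co-chaperone of HSP90 in steroid receptor complexes, was the clearest at 58.7, 55.6, 85.01 and 62.7 and 112, 105, 110.1 and 115 (log2 difference -0.77 ± 0.11, SE, limma adjusted p = 2.22e-06). Hspa8 had overlapping values and was not called (log2 difference 0.013 ± 0.23, SE, limma adjusted p = 0.987). Of 31 proteasome subunits, 14 were lower and 0 higher (median log2 difference -0.30). Psmd1, a scaffold of the regulatory particle, read 95.6, 79.8, 105 and 89.04 and 139, 132, 142 and 150.4 (log2 difference -0.61 ± 0.075, SE, limma adjusted p = 4.90e-08). The deubiquitinase subunit gene Psmd14 read 7.92, 7.54, 8.87 and 7.61 and 14.04, 11.9, 13.2 and 13.6 (log2 difference -0.66 ± 0.084, SE, limma adjusted p = 1.00e-07). The core subunit gene Psma3 read 29.6, 25.3, 34.2 and 28.4 and 40.3, 35.03, 38.3 and 44.9 (log2 difference -0.42 ± 0.061, SE, limma adjusted p = 1.42e-06). None of these 3 had overlapping groups.

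Tubulins, the subunits of microtubules, were the list with the largest share of lower members. Of 12 measured, 10 were lower and 0 higher (median log2 difference -1.06), and 9 of the 12 did not overlap between groups, against 16.8% of all genes. Tubb2a (ENSMUSG00000058672, chromosome 13, 34074274 to 34078007) read 5.47, 4.51, 6.75 and 4.59 in the DRF livers and 81.6, 72.01, 86.5 and 113 in the NRF livers (log2 difference -3.81 ± 0.18, SE, limma adjusted p = 7.14e-21). Its neighbour Tubb2b, a near-identical copy that may share reads with it, read 0.651, 0.00776, 0.7699 and 0.459 and 10.03, 8.95, 10.1 and 13.3 (log2 difference -2.996 ± 0.28, SE, limma adjusted p = 7.33e-11). Tubb4b was at 9.61, 7.66, 12.8 and 9.45 and 30.9, 27.7, 36.6 and 34 (log2 difference -1.63 ± 0.15, SE, limma adjusted p = 1.48e-11). Tuba1c stood at 28.7, 24.5, 45.8 and 30.1 and 83.98, 81.4, 89.05 and 106 (log2 difference -1.48 ± 0.196, SE, limma adjusted p = 2.15e-07), and Tuba1a stood at 3.41, 3.297, 4.44 and 4.18 and 8.62, 7.98, 9.33 and 9.79 (log2 difference -1.04 ± 0.12, SE, limma adjusted p = 7.06e-09). Each tubulin family member named here was lower in every DRF liver than in any NRF liver. The Tubb2a promoter is shown because it is the only window of the 9 tubulin genes in the table with a full cAMP response element, TGACGTCA, in capitals (RefSeq, GRCm38.p6, chr13:34077959-34078258, minus strand, match 59 to 52 bases before the start). The element was present in 1.79% of the 32851 promoters.
Tubb2a: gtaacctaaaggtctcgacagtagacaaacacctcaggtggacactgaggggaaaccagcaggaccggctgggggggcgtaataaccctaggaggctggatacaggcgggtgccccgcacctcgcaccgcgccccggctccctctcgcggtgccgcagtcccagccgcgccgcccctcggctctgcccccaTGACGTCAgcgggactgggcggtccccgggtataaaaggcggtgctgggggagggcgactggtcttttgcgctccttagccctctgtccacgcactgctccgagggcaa

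Metallothioneins, small cysteine-rich proteins that bind zinc and are induced by glucocorticoids and metals, were among the most raised genes. Mt1 (ENSMUSG00000031765, chromosome 8, 94179082 to 94180327) read 62.4, 57.9, 48.9 and 40.2 scaled counts under DRF and 4.33, 4.99, 2.33 and 1.98 under NRF (log2 difference 3.64 ± 0.44, SE, limma adjusted p = 3.34e-08). Mt2 read 63.96, 120.4, 63.2 and 37.03 and 4.98, 4.63, 0.903 and 1.596 (log2 difference 4.21 ± 0.502, SE, limma adjusted p = 2.25e-08), but 73.5% of its exonic length is overlapped by Gm45774 on the other strand, so reads of the pair may not be told apart. Of 13 glucocorticoid response genes, 4 were higher and 1 lower, or 2 lower without NRF replicate 4. Over all genes tested, 7.1% were higher and 6.96% lower. Klf9 was higher at 30.5, 19.7, 25.4 and 23.1 and 17.2, 12.7, 14.8 and 12.4 (log2 difference 0.74 ± 0.15, SE, limma adjusted p = 2.64e-04). Cdkn1a (p21), an inhibitor of the cell cycle, was lower at 0.267, 0.332, 0.333 and 0.384 and 2.38, 1.7, 2.44 and 1.91 (log2 difference -1.22 ± 0.24, SE, limma adjusted p = 2.48e-04). Fkbp5 and Tsc22d3, targets of the glucocorticoid receptor in many tissues, had differences of 0.97 (adjusted p = 0.1504) and -0.296 (adjusted p = 0.502). Of 17 immediate early genes, 0 passed with limma in either direction (3 had an unadjusted p under 0.05), or 1 each way when only the 8 libraries were fitted. Egr1, the member with the largest difference, varied from 0.636 to 4.23 under DRF and from 1.76 to 15.3 under NRF (log2 difference -1.23 ± 0.698, SE, limma adjusted p = 0.2901).

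Listed drug metabolism genes were more often higher than lower in the day-fed livers. The list did not hold Cyp3a44, a cytochrome P450 gene that was lower (log2 difference -2.63 ± 0.48, SE, limma adjusted p = 6.68e-05). Cyp2c29, Cyp2c50, Cyp2c68 and Cyp2c69 could not be tested, as their values were not recovered. Of 28 measured, 11 were higher and 1 (Sult5a1, a sulfotransferase gene) was lower, log2 difference -0.68 ± 0.24, SE, limma adjusted p = 0.0457, a call lost when any 1 of DRF replicate 1, DRF replicate 3, DRF replicate 4, NRF replicate 2 and NRF replicate 3 was left out (log2 differences from -0.72 to -0.47, adjusted p from 0.0641 to 0.247). Por, the electron donor of all microsomal cytochromes P450, read 149, 169, 187 and 175 and 70.1, 60.3, 52.8 and 43.7 (log2 difference 1.58 ± 0.11, SE, limma adjusted p = 4.63e-15). Sult1e1, the oestrogen sulfotransferase, ranged widely, 53.8, 27.6, 149 and 51.7 against 13.7, 2.699, 5.02 and 5.49 (log2 difference 3.13 ± 0.75, SE, limma adjusted p = 0.00227). Cyp2a5, a coumarin hydroxylase, was at 819.7, 624, 957 and 692 and 357, 333, 292 and 315 (log2 difference 1.24 ± 0.26, SE, limma adjusted p = 5.26e-04). Nr1i3 (CAR), the xenobiotic receptor, was higher too (log2 difference 0.92 ± 0.13, SE, limma adjusted p = 1.14e-06), with 74.9% of its exonic length overlapped by Tomm40l on the other strand. Of 24 genes of bile acid synthesis and transport, 8 were higher and 5 lower, which were 5 and 3 with the values as deposited. The neighbouring genes Abcg5 and Abcg8, whose products together pump sterols into bile, rose side by side, Abcg5 at 217, 150.01, 196 and 199 and 74.01, 81.8, 64.9 and 57.4 (log2 difference 1.44 ± 0.14, SE, limma adjusted p = 1.65e-10) and Abcg8 at 75.7, 51.7, 65.5 and 69.1 and 25.7, 25.4, 18.9 and 18.5 (log2 difference 1.53 ± 0.18, SE, limma adjusted p = 1.64e-08). Slc10a1 (NTCP), the bile acid importer, read 818, 974, 1148 and 981 and 572, 568, 649 and 634 (log2 difference 0.69 ± 0.11, SE, limma adjusted p = 1.31e-05). Cyp7a1, the rate-limiting enzyme of bile acid synthesis, ranged from 62.03 to 254 under DRF and from 133 to 225 under NRF and was not called (log2 difference -0.11 ± 0.38, SE, limma adjusted p = 0.924).

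Growth hormone targets and signalling genes were mixed. Of 18 genes, 6 were lower and 2 higher, against 6.96% lower and 7.1% higher over all genes tested. The lower count was 3 when only the 8 libraries were fitted, and the higher count 1 without NRF replicate 3. Stat5a, a transducer of growth hormone signals, was lower at 12.2, 10.1, 11.5 and 11.6 and 21.5, 17.7, 18.3 and 14.9 (log2 difference -0.62 ± 0.11, SE, limma adjusted p = 2.82e-05). Igf1, the growth factor of the axis, read 707, 810.1, 713 and 883 and 946, 1024, 1577 and 1209.7 (log2 difference -0.59 ± 0.16, SE, limma adjusted p = 0.00682), a call lost without NRF replicate 3 (-0.44, adjusted p = 0.0665). Hsd3b5, a steroid enzyme gene with close copies in the genome, was at most 0.417 under DRF and from 2.04 to 47.5 under NRF (log2 difference -3.397 ± 0.62, SE, limma adjusted p = 6.88e-05). Of 14 insulin and FOXO genes, 5 were higher (3 with the values as deposited) and 1, Irs1, was lower, log2 difference -0.35 ± 0.12, SE, limma adjusted p = 0.0485, a call lost when any 1 of DRF replicate 1, DRF replicate 2, DRF replicate 4, NRF replicate 2, NRF replicate 3 and NRF replicate 4 was left out (log2 differences from -0.39 to -0.26, adjusted p from 0.0518 to 0.241). The higher genes included Insr, the insulin receptor gene, at 637, 610.2, 608 and 629 and 446, 429, 442 and 455 (log2 difference 0.49 ± 0.082, SE, limma adjusted p = 2.23e-05), a call that the values as deposited did not give. Foxo3 (log2 difference 0.75 ± 0.103, SE, limma adjusted p = 4.90e-07) and the translation inhibitor gene Eif4ebp1 (log2 difference 0.82 ± 0.12, SE, limma adjusted p = 2.30e-06) were higher without overlap. Irs2 gave 51.1, 41.6, 41.5 and 33.7 and 45.2, 27.4, 38.2 and 61.6 and was not called (log2 difference 0.0057 ± 0.28, SE, limma adjusted p = 0.997).

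Autophagy genes, which serve the recycling of cell contents in the fast, were higher in 6 of 21 and lower in 0. Over all genes tested, 7.1% were higher and 6.96% lower, also the reference for the lists that follow here. Ulk1, the initiating kinase, read 56.3, 57.6, 56.8 and 52.1 and 37.3, 26.7, 26.6 and 45.7 (log2 difference 0.73 ± 0.13, SE, limma adjusted p = 5.64e-05). Bnip3, a mitophagy receptor with 22.3% of its exonic length overlapped on the other strand by Gm45507, read 217, 136, 290.1 and 204 and 91.4, 95.3, 50.5 and 44.7 (log2 difference 1.605 ± 0.25, SE, limma adjusted p = 7.19e-06). Of 22 acute phase proteins, 5 were lower and 2 higher, led by Apcs (serum amyloid P) at 7.63, 9.25, 9.34 and 10.4 and 21.9, 16.1, 23.1 and 24.4 (log2 difference -1.13 ± 0.15, SE, limma adjusted p = 2.04e-07). Il1rn, the interleukin-1 receptor antagonist, was higher at 2.52, 2.26, 2.003 and 2.201 and 1.04, 0.844, 0.463 and 0.631 (log2 difference 0.905 ± 0.13, SE, limma adjusted p = 1.66e-06). The number lower was 3 without DRF replicate 2 and 3 with the values as deposited, and the number higher was 1 without DRF replicate 3, NRF replicate 3 or NRF replicate 4. Of 13 pericentral WNT target genes, 4 were higher and 0 lower, and 1 was higher when only the 8 libraries were fitted. Slc1a2, a glutamate transporter of pericentral hepatocytes, was at 154, 163, 175 and 161 and 73.6, 90.7, 84.4 and 61.3 (log2 difference 1.08 ± 0.11, SE, limma adjusted p = 1.27e-09). Glul and Axin2, canonical members of the list, were not called (0.29 and -0.16, adjusted p = 0.0867 and 0.608). Of 20 cell cycle genes, 4 were lower and 0 higher, among them the replication helicase genes Mcm5 (log2 difference -1.28 ± 0.29, SE, limma adjusted p = 0.00108) and Mcm2 (log2 difference -0.71 ± 0.19, SE, limma adjusted p = 0.00655), and 2 were lower without NRF replicate 3 and 2 when only the 8 libraries were fitted. In the other animals at ZT0, 0 of the 20 were called in either direction. The list median was 0.11 at ZT0 and -0.17 at ZT24.

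Some large complexes showed few differences at the level of their RNAs. The reference for the lists that follow is 7.1% higher and 6.96% lower over all genes tested. Of 79 cytosolic ribosomal proteins, 0 passed with limma in either direction (median log2 difference -0.03), and of 58 nuclear-encoded subunits of the respiratory chain 1, Sdha, was higher (median 0.14), a call lost without DRF replicate 3 (0.15, adjusted p = 0.1303) or without NRF replicate 2 (0.17, adjusted p = 0.0741) or without NRF replicate 4 (0.16, adjusted p = 0.0902). Of the ribosomal protein genes, 1 was higher when genes with a mean under 1 scaled count were left out and 1 when only the 8 libraries were fitted, and 7 had an unadjusted p under 0.05. Ribosome biogenesis factors were lower in 6 of 30, or 3 without NRF replicate 3 and 2 when only the 8 libraries were fitted. The higher members, Npm1 and Ncl, numbered 2, but 1 without DRF replicate 1 or 4 and 0 when DRF replicate 2 or 3 or NRF replicate 1, 2 or 3 was left out. Among 27 SR and hnRNP splicing factors, 7 were lower (4 when only the 8 libraries were fitted) and 2 higher (1 without DRF replicate 3 or in that fit), and the SR genes moved in both directions: Srsf10 read 3.22, 4.21, 3.86 and 4.37 and 5.21, 5.95, 5.63 and 5.46 (log2 difference -0.42 ± 0.089, SE, limma adjusted p = 5.51e-04). Srsf5 read 41.2, 33.6, 35.8 and 28.1 and 27.3, 20.2, 19.8 and 24.4 (log2 difference 0.58 ± 0.13, SE, limma adjusted p = 0.00146). Of 13 snoRNA host and nuclear lncRNA genes, 2 were higher and 0 lower, and the count was 0 without DRF replicate 1 and 1 when any other single library except DRF replicate 4 was left out. Of the cold-inducible RNA-binding protein genes, Cirbp was higher (log2 difference 0.601 ± 0.19, SE, limma adjusted p = 0.0272) and Rbm3 was not called (log2 difference 0.34 ± 0.14, SE, limma adjusted p = 0.109). The Cirbp call was lost without DRF replicate 1 (0.44, adjusted p = 0.172) or without DRF replicate 3 (0.58, adjusted p = 0.0602) or without NRF replicate 1 (0.503, adjusted p = 0.107).

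Markers of cells other than hepatocytes were called in few cases. Of 10 Kupffer cell markers, 2 were lower and 0 higher, against 6.96% lower over all genes tested, and all 10 had log2 differences below 0, from -0.92 to -0.17. Adgre1 (F4/80), a macrophage marker, read 154, 173, 162 and 191 and 255, 379.6, 206 and 537 (log2 difference -0.92 ± 0.19, SE, limma adjusted p = 5.66e-04), with NRF replicates 2 and 4 highest, beside the Kupffer marker sums given above. Timd4, a receptor of resident macrophages, was the other (log2 difference -0.53 ± 0.19, SE, limma adjusted p = 0.04802), a call lost when any 1 of DRF replicate 1, DRF replicate 3, DRF replicate 4, NRF replicate 2 and NRF replicate 4 was left out (log2 differences from -0.56 to -0.43, adjusted p from 0.0614 to 0.184). Neither was called when only the 8 libraries were fitted, and the part of macrophage number in these values was not tested. In the other animals at ZT0, 0 of the 10 Kupffer cell markers were lower and 1 was higher. The list median was 0.011 at ZT0 and -0.31 at ZT24. Of 11 markers of sinusoidal endothelium, 1 was lower, Gpr182 (log2 difference -0.399 ± 0.098, SE, limma adjusted p = 0.00317), against 6.96% lower over all genes tested, and 0 when only the 8 libraries were fitted. Of 5 bile duct markers, 1 was lower, Sox9 (log2 difference -0.54 ± 0.12, SE, limma adjusted p = 8.20e-04), while the list ranged from -0.54 to 0.40 on the log2 scale with a median of -0.03, and its sum was 29.48 ± 3.301 under DRF and 26.92 ± 1.908 under NRF (SD, n = 4). Of 10 stellate cell markers, 1 was higher, Hgf (log2 difference 0.54 ± 0.12, SE, limma adjusted p = 7.96e-04), against 7.1% higher over all genes tested, and the list ranged from -0.34 to 0.54 with a median of 0.15. At ZT0, 0 stellate cell markers were higher and 1 was lower, with a median of -0.057. With limma, 0 of the 6 lymphocyte, 3 neutrophil, 5 red blood cell and 1 adipocyte markers passed, of which 2 red blood cell markers had an unadjusted p under 0.05. In the other animals, 3 of the 5 red blood cell markers were higher and 0 lower at ZT0, and likewise at ZT12. Over all 25404 genes tested, 2029 and 1790 were higher at these times. The medians of the red blood cell list were 1.03 at ZT0, 0.85 at ZT12 and 0.37 at ZT24.

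**Figure D3:**
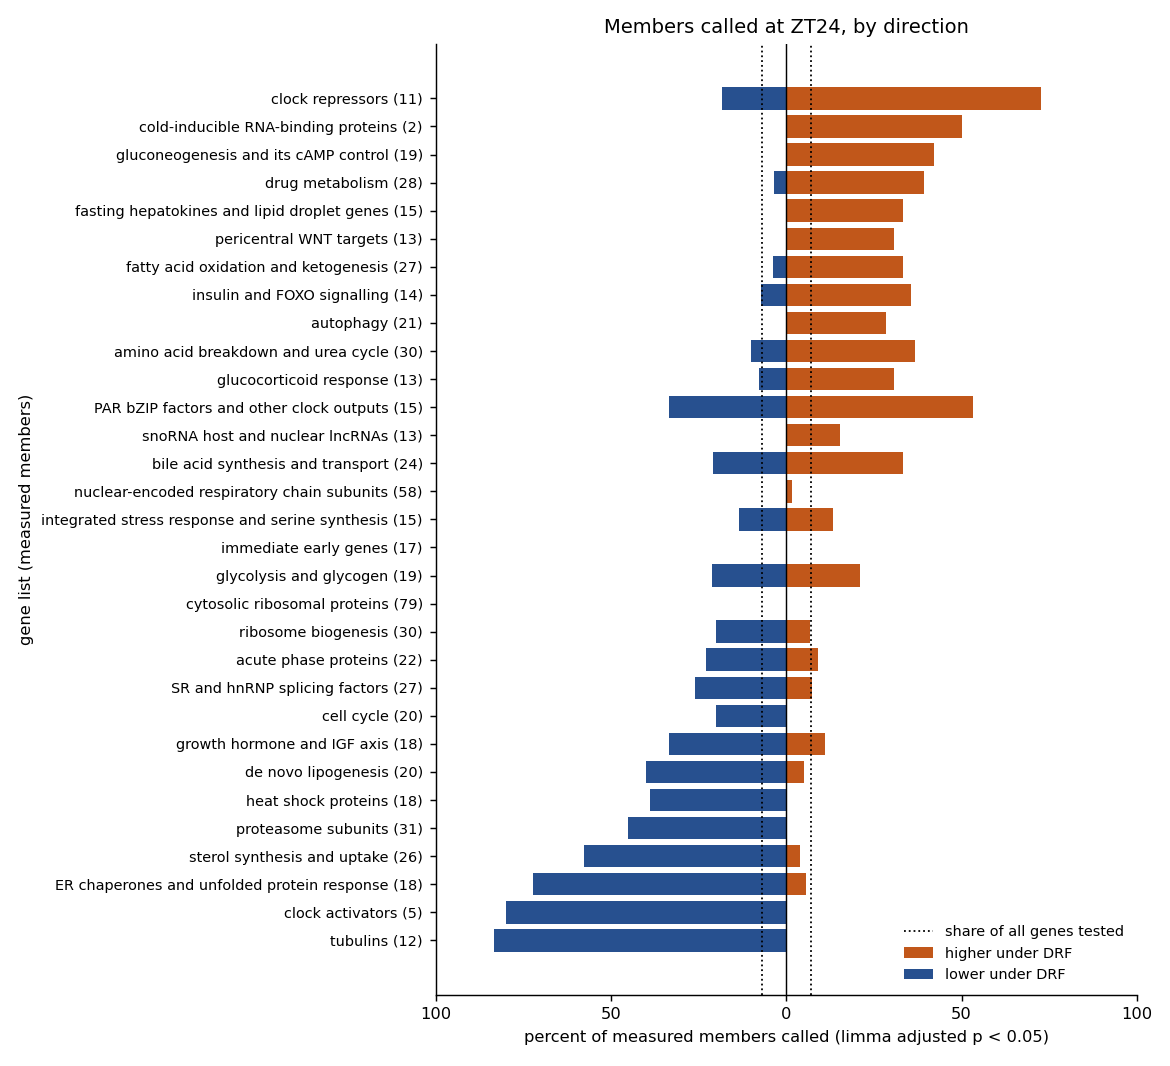
Share of measured members of 31 gene lists called at ZT24 (horizontal axis, percent), higher under DRF to the right and lower to the left, with the number measured in parentheses. Dotted lines mark the 7.1% and 6.96% of all genes tested. Clock repressors (8 of 11) reach furthest to the right and tubulins (10 of 12) furthest to the left.

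The largest differences included clock genes and genes of other kinds, and their relation to the clock or to fasting was not tested. By the rule for named genes, the 10 most raised were Dbp, Mt2, Sult2a3, Mt1, Nr1d1, Nr1d2, Rgs16, Per3, Sult1e1 and Mfsd2a, and the 10 most lowered were A1bg, Loxl4, Tubb2a, Hsd3b5, Tubb2b, Arntl, Slc34a2, Cyp3a44, Ppp1r3c and Ppard. Mfsd2a, a lysophospholipid transporter induced by fasting, read 87.2, 91.5, 138 and 99.7 and 12.2, 25.1, 10.9 and 7.28 (log2 difference 2.93 ± 0.33, SE, limma adjusted p = 4.56e-09). Loxl4, a lysyl oxidase, was near 1 scaled count in every day-fed liver, 0.736, 1.197, 1.08 and 0.991, and at 37.5, 24.4, 31.8 and 36.9 in the night-fed livers (log2 difference -4.06 ± 0.18, SE, limma adjusted p = 1.69e-21). A1bg, a plasma protein gene, had 3.96, 5.25, 3.05 and 10.1 under DRF and 80.8, 71.4, 363 and 185 under NRF (log2 difference -4.53 ± 0.56, SE, limma adjusted p = 4.13e-08), with NRF replicate 3 highest. Ppard (PPAR-delta), a fatty acid receptor, was at 2.01, 2.07, 2.2 and 2.31 and 22.7, 11.96, 12.7 and 17.5 (log2 difference -2.41 ± 0.17, SE, limma adjusted p = 1.31e-14). Slc34a2, a phosphate transporter, read 0.684, 1.597, 0.545 and 0.477 and 6.17, 13.3, 9.49 and 14.1 (log2 difference -2.67 ± 0.25, SE, limma adjusted p = 7.93e-11). At ZT12, Mfsd2a (-1.28), Loxl4 (1.82), Ppard (1.56) and Slc34a2 (2.21) were called in the opposite direction. A1bg was not called there (0.084, limma adjusted p = 0.956).

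The ZT0 livers, of other animals at the same time of day, repeated most of the pattern. At ZT0, 4067 genes (16% of those tested) differed between DRF and NRF. Of the 3571 ZT24 genes, 2319 (64.9%) were called in the same direction at ZT0, 0 in the opposite direction and 1252 not at all, and 3459 (96.9%) had the same sign. The difference itself was tested with limma against that at ZT0, and 1 gene (0.00394%) passed, Gm31323, with 0.36 on the log2 scale more at ZT24. Leaving out 1 library gave 0 to 8 such genes, with 8 without DRF replicate 1 and 4 without DRF replicate 2 of ZT0, and with 0 without DRF replicate 1, NRF replicate 2 or NRF replicate 3 of ZT24 or NRF replicate 1 or 2 of ZT0. It gave 2 without DRF replicate 2 or 4 of ZT24 or without DRF replicate 3 or NRF replicate 4 of ZT0. No member of the immediate early gene list passed this test, although 7 of its 17 genes were higher at ZT0 and 0 at ZT24. Among named genes, Dbp differed by 4.88 ± 0.21 at ZT0 and Arntl by -3.28 ± 0.19. Sult1e1 did not pass at ZT0 (1.14 ± 0.75, limma adjusted p = 0.366), nor did Angptl4 (0.801 ± 0.32, limma adjusted p = 0.0886).

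At ZT12, where the NRF mice were at the end of their fast and the DRF mice at the end of feeding, 3848 genes (15.1%) differed. Of the ZT24 genes, 1890 (52.9%) were called in the opposite direction there, 33 (0.924%) in the same direction and 1648 not at all. The 33 were 18 without DRF replicate 1, 21 without DRF replicate 3 and 16 without NRF replicate 2 of ZT24, and 20 without DRF replicate 2 and 18 without NRF replicate 1 of ZT12. In total, 1507 (42.2%) were called in the same direction at ZT0 and in the opposite direction at ZT12. The difference itself changed between ZT24 and ZT12 in 5650 genes (22.2%), which included all 11 clock repressors, 11 of 12 tubulins, 24 of 31 proteasome subunits and 14 of 18 chaperones of the endoplasmic reticulum. Arntl, which was lower under DRF at ZT24, was higher at ZT12, 57.3 ± 4.36 under DRF against 1.38 ± 0.209 under NRF (SD, n = 4) (log2 difference 4.62 ± 0.19, SE, limma adjusted p = 9.46e-23). Tubb2a behaved likewise, 72.5 ± 1.96 against 3.94 ± 0.507 (SD, n = 4; log2 difference 3.901 ± 0.18, SE, limma adjusted p = 2.88e-21). Lists of the fast differed in how many ZT24 calls turned over. Called in the opposite direction at ZT12 were 5 of the 8 called genes of glucose production, all 5 of the hepatokine and lipid droplet genes, 3 of the 10 of fatty acid oxidation and ketogenesis, and 4 of the 14 of amino acid breakdown and the urea cycle. The last pair of lists had 4 and 5 genes higher and 2 and 1 lower at ZT12. Pck1 was among the genes that turned, at 262 ± 55.9 and 1036 ± 215 (SD, n = 4; log2 difference -1.98 ± 0.36, SE, limma adjusted p = 6.38e-05). Pdk4, lower in the fasted livers at ZT24, was higher in the fed livers at ZT12, 18.3 ± 6.34 under DRF against 4.602 ± 2.04 under NRF (SD, n = 4; log2 difference 1.804 ± 0.33, SE, limma adjusted p = 6.24e-05). Ugp2, higher at ZT24, did not pass at ZT12 (log2 difference -0.202 ± 0.16, SE, limma adjusted p = 0.468). The interaction test was run on the signed differences of every gene, and the absolute sizes at ZT24 and ZT12 were not compared.

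**Figure D4:**
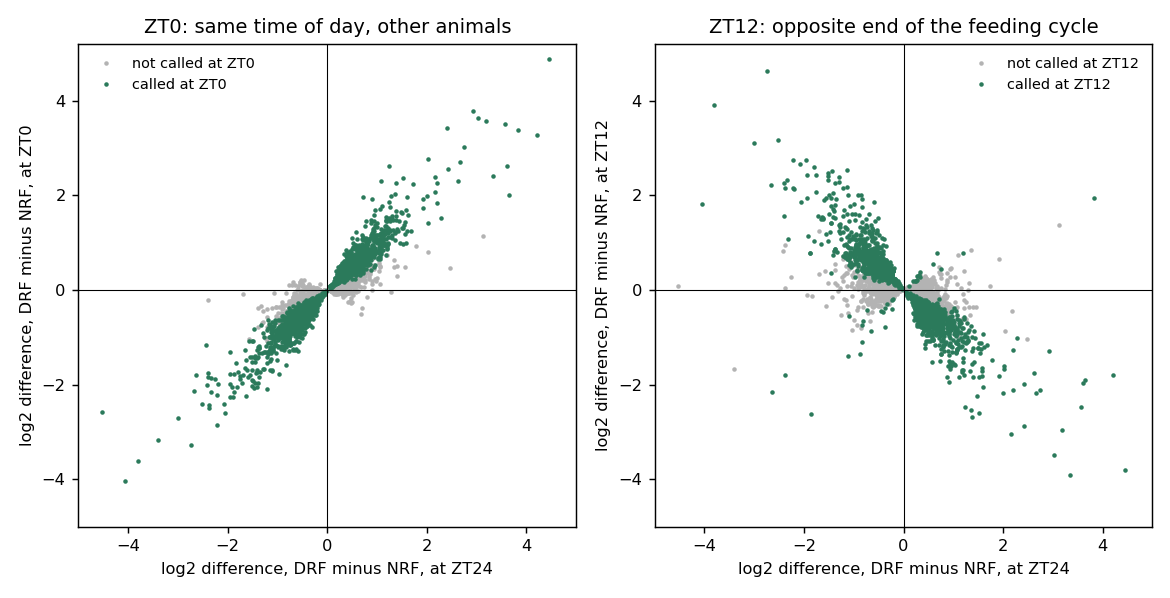
Log2 difference between DRF and NRF of the 3571 genes called at ZT24 (horizontal axes) against the same difference in other animals at ZT0 (left) and at ZT12 (right). Green points were called at the other time, 2319 at ZT0, and at ZT12 1890 in the opposite and 33 in the same direction. Points lie along the rising diagonal at ZT0 and mostly along the falling diagonal at ZT12.

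A small set of genes kept its direction at both ends of the feeding cycle. In all, 16 genes were called in 1 direction at ZT24, ZT0 and ZT12, 7 higher and 9 lower under DRF. The 9 whose ZT24 call was kept when any 1 library was left out included the 5 with the smallest p by the rule, Cyp3a59, Cela1, Sult2a3, Mup3 and Cyp3a44. The ZT0 and ZT12 calls were not checked gene by gene in this way. Several of the 16 genes belong to gene families with near-identical copies, so their reads may be shared. Cyp3a44, a cytochrome P450 of female liver, read 41.1, 58.2, 84.2 and 59.4 and 202, 457, 574 and 355 at ZT24 (log2 difference -2.63 ± 0.48, SE, limma adjusted p = 6.68e-05) and differed by -2.15 ± 0.48 at ZT12. Cyp3a59, of the same subfamily, was instead higher, 265, 200.1, 296 and 216 against 134, 118, 83.7 and 92.7 (log2 difference 1.19 ± 0.18, SE, limma adjusted p = 3.92e-06), with 0.77 ± 0.18 at ZT12. Sult2a3, a steroid and bile acid sulfotransferase gene, read 59.7, 22.97, 106 and 58.4 and 4.51, 1.95, 1.52 and 4.54 (log2 difference 3.83 ± 0.67, SE, limma adjusted p = 3.95e-05), a call that the values as deposited did not give. At ZT12 it differed by 1.95 ± 0.67 (limma adjusted p = 0.0412). Mup3, a major urinary protein gene, was held at 615, 602, 612 and 629 in the DRF livers and 1054, 1212, 1647 and 1379.6 in the NRF livers (log2 difference -1.09 ± 0.19, SE, limma adjusted p = 5.27e-05). Its difference at ZT12 was -0.55 ± 0.19 (limma adjusted p = 0.0485). Slco1a1, a transporter of bile acids and steroid conjugates, read 10.1, 15.1, 16.1 and 17.6 and 56.3, 91.2, 127 and 61.6 (log2 difference -2.38 ± 0.52, SE, limma adjusted p = 8.75e-04), with -1.802 ± 0.52 at ZT12. Cela1, an elastase gene, was low in all livers, 1.95, 2.18, 1.74 and 1.65 and 3.85, 3.58, 4.72 and 3.02 (log2 difference -0.73 ± 0.12, SE, limma adjusted p = 2.79e-05), and differed by -0.41 ± 0.12 at ZT12. Cela2a, the only other of 6 exocrine pancreas markers measured, was at 0.316 ± 0.0446 under DRF and 0.344 ± 0.0986 under NRF (SD, n = 4) and was not called at ZT24. Of the 7 others, whose ZT24 call was lost without at least 1 library, Cd36, the fatty acid transporter gene, differed by 0.59 ± 0.18 at ZT24, 0.72 ± 0.18 at ZT0 and 0.56 ± 0.18 at ZT12.

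**Figure D5:**
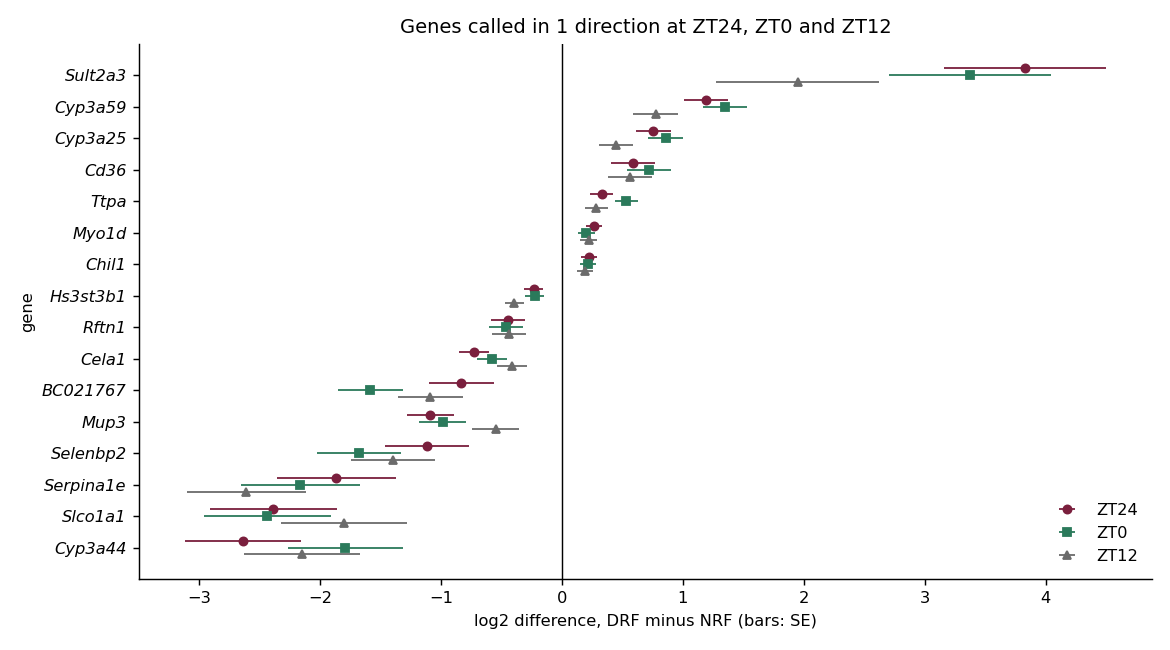
Log2 differences between DRF and NRF (horizontal axis) of the 16 genes called in 1 direction at ZT24 (circles), ZT0 (squares) and ZT12 (triangles). Bars are standard errors. The 7 genes above the middle are higher and the 9 below it lower under DRF at all 3 times.

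Circular RNAs, counted by reads across back-splice junctions, were a second readout of the same livers. Junction reads numbered 8180 to 17522 per liver, and 1348 of the 2352 circRNAs listed had a value above 0 in 4 or more livers. With limma on the deposited log2 values, 0 (0%) passed and 55 had an unadjusted p under 0.05 (lowest adjusted p = 0.203). The circRNA with the smallest p, novel_circ_0009296, read 11.1, 11.6, 11.5 and 10.9 on the log2 scale under DRF and 9.67, 9.48, 10.2 and 10.008 under NRF. Its difference was 1.42 ± 0.286 (SE, limma adjusted p = 0.203), without overlap. When the 402 circRNAs above 0 in all 8 livers were fitted alone, 1 passed (lowest adjusted p = 0.011), and 1 passed with all 56 libraries in the fit. At this depth many circRNAs stood on a few junction reads, and the table gives identifiers without positions, so host genes are not named here.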

How the data were processed

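Liver RNA of 56 mice was sequenced from libraries that the protocol describes as rRNA-depleted and strand-specific (dUTP), while the molecule field of the labels names polyA RNA. Per the submitters' processing notes, CASAVA 1.8 and featureCounts 1.5.0-p3 were used with mm10 and GRCm38.p6. The aligner, and whether counting was by strand, are not given in the sources used here. The authors deposited gene values named TPM that were not linear, and their unit is taken here as a score: a value times exon length was a scaled logarithm of 1 plus a multiple of a whole count. The circRNA values were deposited by the authors on a log2 scale. The authors' transcript table was not used, and 0 columns were of no sample.

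For each library the log was undone and counts were recovered and scaled. Of 25415 listed genes, 11 without a recovered length (Plg, Gm26917, C3, Ttr, Acaa2, Rbp4, Cyp2c29, Cyp2c68, Cyp2c69, Cyp2c50 and Scd1) were left out, and 25404 were tested with no filter on low values. On genes kept out of the fit and taken at their annotated length, 96.6% to 97.6% of values came out whole within 0.05, against 10% by chance. For 2164 genes, Ppp1r3c among them, a length was instead searched in these data so that values came out whole. The same was done for 75 genes of high counts, Cpt1a among them. A further 53 genes were used at their annotated length without being judged. The check on kept-out genes does not cover searched lengths. Library totals ranged from 855059 to 1068033 scaled counts. Because 1 scaled count stood for 303.9 to 723 recovered counts, which exceed the reads described by the study, recovered counts were not taken as reads and no count model was run. Sequencing depth behind single values is therefore unknown, and precision is given by the spread between animals. 

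Groups came from the sample labels. The 14 groups were fitted together with limma 3.58.1 (R 4.3.3, empirical Bayes with trend) on log2(scaled count + 1). Contrasts were DRF minus NRF at ZT24, and its difference from the same contrast at ZT0 and ZT12, each with Benjamini-Hochberg adjustment over all genes and a threshold of 0.05. The circRNA test used the 8 libraries at ZT24. Single sums were tested by exact permutation. Tables were handled with Python 3.11.15, numpy 2.4.6, pandas 2.3.3, scipy 1.17.1 and numba 0.67.0, and the fit was tested on simulated data. Alternatives were the deposited values, pseudocounts of 0.1 and 5, a minimum mean of 1 scaled count, median-of-ratios scaling, removal of an exon length trend, only the libraries of the groups compared, no mean-variance trend, a replicate block and leaving out each library.

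The livers compared, the 31 pathway lists and the 10 marker lists (749 genes, 14 not measured) were chosen with earlier results of these data known. Genes were named by rule: the 10 largest differences in each direction among called genes with a mean of at least 5 scaled counts, no overlap and a gene symbol; up to 4 members of each list by p, other members only with their values; Arntl, Nr1d1, Dbp and Per2; genes passing the ZT0 test; and up to 5 called in 1 direction at ZT24, ZT0 and ZT12.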

Additional observations from a re-analysis of the deposited data

Results flagged for a closer look

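In 14 of 303 groups of 4 livers checked, 1 liver stood apart from the other 3 by more than Dixon's 95% limit for 4 values (gap to the nearest liver over the whole range). Chance gives such a liver in about 5% of groups. Among clock genes and outputs, DRF replicate 2 was lowest for Nr1d2 (ratio 0.856, 150.2 scaled counts), and among the night-fed livers replicate 4 was highest for Rgs16 (0.875, 7.43 scaled counts) and Arntl (0.919, 81.2), replicate 1 highest for Per3 (ratio 0.83, 5.83 scaled counts) and replicate 2 lowest for Nfil3 (0.856, 49.7). All of these livers stayed on their group's side of the other group. NRF replicate 4 was also highest for Rbm3 (0.841, 2.92 scaled counts) and lowest for the cytochrome P450 gene Cyp2e1 (0.916, 2561.5 scaled counts). For the forkhead factors, DRF replicate 2 was lowest for Foxo4 (0.904, 10.52 scaled counts) and DRF replicate 3 highest for Foxo3 (0.878, 144 scaled counts). DRF replicate 3 was highest for the complex I subunit gene Ndufb8 (0.982, 13.8 scaled counts) and the endothelial phosphatase gene Ptprb (0.834, 357 scaled counts). NRF replicate 2 was highest for the macrophage receptor gene Csf1r (0.843, 129 scaled counts), and DRF replicate 4 for the bile duct marker Spp1 (0.898, 28.8 scaled counts) and the haemoglobin gene Hbb-bt (0.885, 523 scaled counts).

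The difference between DRF and NRF changed between times by limma's interaction test in 5650 genes between ZT24 and ZT12. Between ZT24 and ZT0 it did so in 1 gene, Gm31323, with 0.356 on the log2 scale.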

How the results depend on the processing

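The count of 3571 genes at ZT24 stayed within 1.5 times under every alternative except that fitting only the libraries of the groups compared gave 2340, of which 1093 were lower. That fit also gave 1201 genes called in the opposite direction and 20 in the same direction at ZT12, with fewer libraries to estimate the spread. The deposited values gave 2786 (1337 higher, 1449 lower). The 1 gene that differed from ZT0 became 0 with only the libraries compared, 0 with a minimum mean of 1 scaled count and 0 with the exon length trend removed, and the cause was not tested. The circRNA count of 0 became 1 when only circRNAs above 0 in all 8 libraries were fitted and 1 with all 56 libraries. Leaving out 1 library gave 2869 to 3371 genes at ZT24, 0 to 8 that differed from ZT0, and 16 to 33 in the same direction at ZT12. No result reversed. Of 124 called genes named by rule, the deposited values kept 116, only the libraries compared 99, a pseudocount of 5 kept 123, and leaving out 1 library 116 to 119. Replicate numbers were shared between groups by different animals, and their deviations did not pair (correlations -0.0248 to 0.0345 over 8902 genes). With the replicate number as a block, 3564 genes were called (1783 higher, 1781 lower), with 0 circRNAs, and all 124 named genes kept their call. Without counts of reads, differences in genes of few scaled counts could not be given a counting error.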
